A study of Mus musculus with 8 samples.

Results

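Gene expression of a mouse fibroblast line and of a mouse melanoma line was compared over all 8 arrays of a series, 4 of NIH3T3 and 4 of B16F10, whatever else had been done to the cells. NIH3T3 is an established line of embryonic fibroblasts, and B16F10 is an established, pigmented melanoma line. A probe set was counted as separating the lines when its lowest array in one line lay above its highest array in the other. The study itself was about PGC7, also called Stella or Dppa3, a protein of egg and germ cells, which had been put into both lines with a virus in the presence of polybrene. NIH3T3 was represented by 1 control, 1 PGC7 culture taken before cloning, and PGC7 clones 1 and 2. B16F10 was represented by 1 control and PGC7 clones 1, 2 and 3. The groups were taken from the sample titles, since the genotype labels of the 6 PGC7 samples say PGC8 and describe every one as not yet cloned. All cells were grown in the same kind of medium with 10% serum, and total RNA was made into biotin-labelled cRNA for 1 Affymetrix array per sample. No label says whether the controls received an empty virus, or when the arrays of each line were hybridized. The line and any batch of hybridization therefore cannot be told apart.

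Melanocytes arise from the neural crest, the migrating cells that also give rise to Schwann cells. They make melanin in melanosomes with the enzymes tyrosinase, TYRP1 and DCT, under the transcription factors MITF, SOX10 and PAX3. MITF binds short E-box motifs in the promoters of pigment genes. Fibroblasts secrete and crosslink fibrillar collagens and other matrix proteins, carry receptors for platelet-derived growth factor, and express mesenchymal transcription factors of the TWIST and PRRX families.

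The promoters of 4 pigment genes and of 2 collagen genes are shown because these genes lay on opposite sides of the comparison. CATGTG is an E-box that MITF is known to bind, and CCAAT is an element of many promoters, that of Col1a2 among them. Sequences are from RefSeq, assembly GRCm38.p6, each running 5′ to 3′ on the gene's strand from 250 bases before to 50 bases after the annotated start. Capitals mark CATGTG and CCAAT in all of them, read on either strand, so that CACATG and ATTGG are marked as well. The lines give Tyr (chr7:87493463-87493762, minus strand), Tyrp1 (chr4:80833963-80834262, plus strand), Dct (chr14:118052197-118052496, minus strand), the first listed start of Trpm1 (chr7:64153585-64153884, plus strand), Col1a2 (chr6:4505368-4505667, plus strand) and Col3a1 (chr1:45311288-45311587, plus strand).
Tyr: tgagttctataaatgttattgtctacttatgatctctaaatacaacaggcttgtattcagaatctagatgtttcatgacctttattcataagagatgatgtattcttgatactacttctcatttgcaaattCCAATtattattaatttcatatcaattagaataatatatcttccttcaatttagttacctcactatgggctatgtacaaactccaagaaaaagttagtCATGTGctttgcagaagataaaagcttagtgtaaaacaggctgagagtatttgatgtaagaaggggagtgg
Tyrp1: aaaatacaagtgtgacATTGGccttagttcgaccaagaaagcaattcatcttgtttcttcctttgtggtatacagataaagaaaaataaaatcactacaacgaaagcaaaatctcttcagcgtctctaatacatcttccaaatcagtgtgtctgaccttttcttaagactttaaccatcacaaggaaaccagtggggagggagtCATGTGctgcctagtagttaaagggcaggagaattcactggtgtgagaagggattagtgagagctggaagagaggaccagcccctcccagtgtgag
Dct: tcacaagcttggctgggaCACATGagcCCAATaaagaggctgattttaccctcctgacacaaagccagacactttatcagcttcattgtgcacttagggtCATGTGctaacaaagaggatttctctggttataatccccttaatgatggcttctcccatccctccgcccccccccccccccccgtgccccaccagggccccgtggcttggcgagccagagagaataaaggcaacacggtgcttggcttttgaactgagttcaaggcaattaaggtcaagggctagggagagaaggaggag
Trpm1: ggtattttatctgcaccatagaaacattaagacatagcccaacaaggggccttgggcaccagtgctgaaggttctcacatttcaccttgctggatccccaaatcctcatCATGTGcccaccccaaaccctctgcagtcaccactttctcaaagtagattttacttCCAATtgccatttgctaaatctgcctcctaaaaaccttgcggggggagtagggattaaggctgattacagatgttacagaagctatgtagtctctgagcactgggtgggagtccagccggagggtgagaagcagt
Col1a2: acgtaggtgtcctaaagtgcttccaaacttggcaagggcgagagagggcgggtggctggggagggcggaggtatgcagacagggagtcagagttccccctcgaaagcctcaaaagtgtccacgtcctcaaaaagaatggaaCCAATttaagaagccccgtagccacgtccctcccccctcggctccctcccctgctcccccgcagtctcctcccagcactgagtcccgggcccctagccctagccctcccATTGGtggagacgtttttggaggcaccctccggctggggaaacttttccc
Col3a1: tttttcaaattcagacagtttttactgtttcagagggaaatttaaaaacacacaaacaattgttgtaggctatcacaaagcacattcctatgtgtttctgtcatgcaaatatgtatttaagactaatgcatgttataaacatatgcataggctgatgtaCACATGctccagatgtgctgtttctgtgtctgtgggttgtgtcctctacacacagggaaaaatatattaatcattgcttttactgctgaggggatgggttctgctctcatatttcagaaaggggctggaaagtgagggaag
CATGTG began at position -21 from the start in Tyr, -46 in Tyrp1, -232 and -150 in Dct, -141 in Trpm1 and -91 in Col3a1, and was not in the window of Col1a2. CCAAT began at -119 in Tyr, -234 in Tyrp1, -223 in Dct, -85 in Trpm1, and -109 and 1 in Col1a2, and was not in the window of Col3a1. None of the 3 listed promoters of Mitf itself held CATGTG, and 1 held CCAAT. Of all 32851 promoters in the table, 14.2% held CATGTG and 37.4% held CCAAT. Among the 16 promoters of the 12 genes for melanin synthesis and the melanosome membrane that were in the table, 8 held CATGTG and 9 held CCAAT. Among the 18 promoters of 16 collagen genes, 1 held CATGTG and 8 held CCAAT. The share with CCAAT was 37.7% among promoters of all tested genes. The share with CATGTG was 13.02% among promoters of genes at least 16-fold apart with B16F10 higher, 8.52% where NIH3T3 was that much higher, and 8.50% among promoters of all tested genes. For CACGTG, the other E-box looked for and not marked above, these shares were 6.25%, 6.73% and 9.92%. It was held by 3 of the 16 melanin and melanosome promoters, 0 of the 18 collagen promoters and 7.15% of all promoters. A match of letters is a description of the sequence only.

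The deposited signals of the NIH3T3 arrays were on a lower scale, so every array was scaled to a trimmed mean of 500, the level of the B16F10 columns, and differences were taken on the log2(signal + 9) scale, which understates the difference of dim probe sets. A positive difference means higher in NIH3T3, the error after a difference is its standard error from limma, and each difference is over 4 arrays of each line. A gene said to be higher or to differ passed an adjusted p under 0.05 in limma unless stated. After scaling, the median signal of an array was 57.4 to 71.6 in NIH3T3 and 36.0 to 39.7 in B16F10. The NIH3T3 control stood apart from the rest of its line, with correlations of 0.912 to 0.920 to the other NIH3T3 arrays against 0.962 to 0.978 among those. The median difference over the 25269 tested probe sets was 0.22, and it moved to -0.11 with quantile normalization, to -0.50 and 0.56 when the arrays were set equal by poly-A spikes or by housekeeping genes, and to -1.36 with the values as deposited. The size of a small difference therefore rests on the scaling. A probe set was tested if its mean signal reached 49.1 in at least 1 line. Of 11652 tested genes, each by its brightest probe set, 9355 reached this level, and were testable, in both lines, 1558 in NIH3T3 alone and 739 in B16F10 alone. A gene that reached it in 1 line alone was all but bound to differ, so a count over the tested genes of a list describes where they lay and supports nothing further. Limma called 30.1% of the 9355 genes higher in NIH3T3 and 34.7% higher in B16F10. In cultures measured in bulk, fewer cells that express a gene and less RNA per cell cannot be told apart. The arrays of a line stood as replicates of it, but nothing in the labels says that they were independent cultures, and p-values reflect no more than the spread between the 8 samples.

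The lines differed over most of the tested transcripts. At a Benjamini-Hochberg adjusted p under 0.05 in limma, 10129 probe sets (40.1%) were called higher in NIH3T3 and 7241 (28.7%) higher in B16F10. The share of all calls that was higher in NIH3T3 was 58.3%, and it was 45.7% with quantile normalization, 32.2% with poly-A spike scaling, 72.5% with housekeeping scaling and 12.95% with the values as deposited. Without regard to a test, 9231 probe sets (36.5%) were higher in every NIH3T3 array than in every B16F10 array, and 6659 (26.4%) were higher in every B16F10 array. Without the NIH3T3 control these counts were 10379 and 7757. A gap of at least 2-fold between the nearest arrays of the lines was seen for 3671 probe sets (14.5%) of 2441 genes with NIH3T3 higher and 2017 (7.98%) of 1384 genes with B16F10 higher. Only 55 genes had probe sets separated by 2-fold in opposite directions. A gap of at least 16-fold was seen for 373 probe sets (1.48%) of 245 genes with NIH3T3 higher and 261 (1.03%) of 183 genes with B16F10 higher. The edge of the rule was narrow: Fancg and Mrpl15 lay just inside separation, with gaps of 3.02e-05 and 9.15e-05 on the log2 scale, and Zfp637 and Wdr26 just outside, with -0.00013 and -0.00018. At the 2-fold margin, C1galt1 lay inside with a gap of 1.0004 and Gyg outside with 0.999932.

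The 12 genes with the largest gap in favour of NIH3T3 were Col3a1, Dlk1, Dcn, Rpl39l, Myh10, Cd34, Efemp1, S100a4, Lox, Crabp1, S100a6 and Vcan. The 12 in favour of B16F10 were Mbp, Mlana, Tyrp1, Ptgds, Dct, Syt4, Pax3, Pmel, Epha3, Rab38, Fndc3c1 and Glrb. These were chosen by their gap, each by the probe set with the widest one, so their values describe the extremes. For Vcan, Mbp, Tyrp1, Ptgds, Syt4 and Rab38 that was not the brightest probe set, by which genes are counted in the lists.

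**Figure D1:**
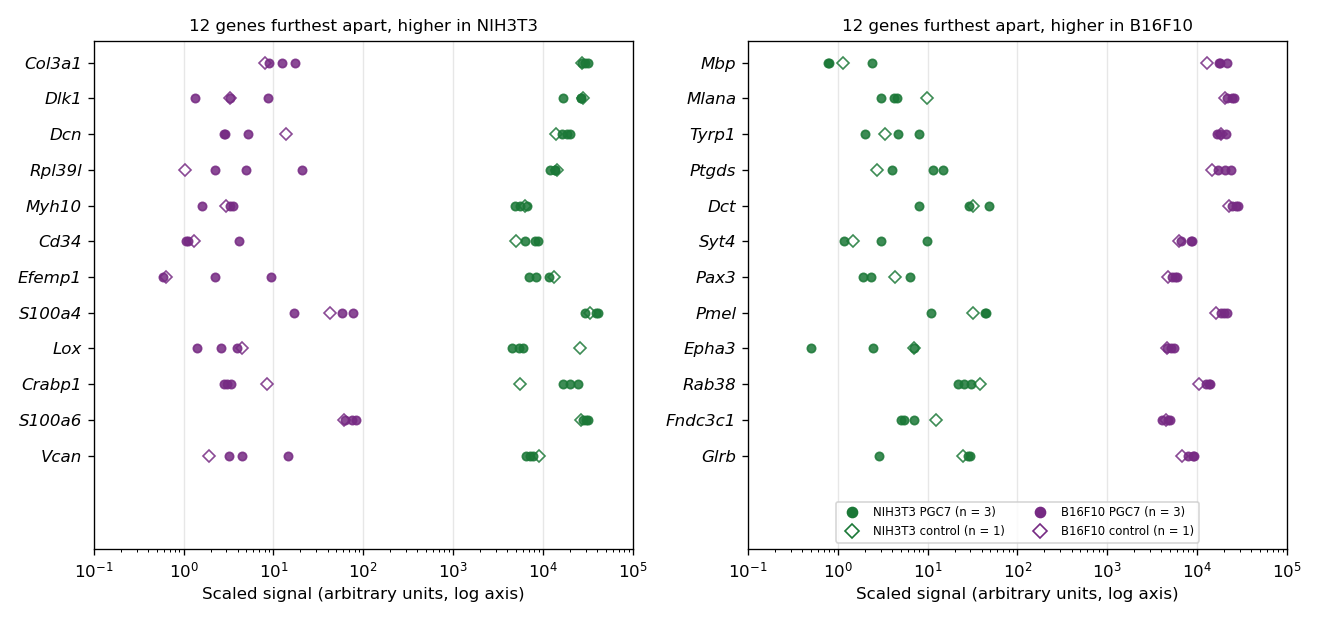
Scaled signal in each of the 8 arrays (log axis, arbitrary units) for the 12 genes with the largest gap in each direction; filled points are PGC7 arrays and open diamonds are the lone controls, green for NIH3T3 and purple for B16F10. The 4 arrays of a line lie together and far from those of the other line; Col3a1 has 27079 in the NIH3T3 control and 7.97 in the B16F10 control.

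Genes of the melanin pathway were high in B16F10. Of 16 measured genes for melanin enzymes and melanosome membrane proteins, 15 could be tested, and limma called 15 higher in B16F10 and 0 higher in NIH3T3, where 33.6% and 35.7% of all genes, each by its brightest probe set, were called in those directions. The nearest arrays were at least 2-fold apart for 11 of the 15, against 8.99% of all genes with B16F10 higher, and the median difference was -6.94 against 0.03 over all tested genes. Of the 15, 12 reached the level for testing in B16F10 alone, and the 3 that reached it in both lines were all called higher in B16F10. The count of 15 was the same under the 4 other scalings. The one gene that was too dim to test was Ednrb, the endothelin receptor of melanoblasts.

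Tyr encodes tyrosinase, the rate-limiting enzyme of melanin synthesis. Its signals were 3905, 7451, 6185 and 9735 in the B16F10 control and clones 1, 2 and 3, and 25.7, 35.1, 8.5 and 6.6 in the NIH3T3 control, the uncloned culture and clones 1 and 2 (difference -7.99 ± 0.38, limma adjusted p = 8.3e-08). Tyrp1, which stabilizes tyrosinase and acts later in the pathway, had 18452, 18192, 16824 and 20754 in B16F10 and 3.35, 2.00, 8.04 and 4.73 in NIH3T3, in the same order of arrays, by the probe set with the widest gap. By its brightest probe set it had 21806, 23704, 24952 and 26839.8 against 46.9, 1.94, 4.32 and 1.65. Dct, the dopachrome tautomerase, had 22923, 24559, 26962 and 28863 against 31.9, 7.93, 28.6 and 47.9. All 4 B16F10 arrays were high and all 4 NIH3T3 arrays low for each of these enzymes, with no overlap.

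Structural and transport proteins of the melanosome showed the same division. Pmel, which builds the fibrils on which melanin is laid down, had 16291, 18239.8, 19818 and 21424 in B16F10 and 32.4, 43.8, 10.8 and 44.6 in NIH3T3. Mlana, a melanosome membrane protein recognized by T cells in melanoma, had 20525, 21741, 24719.5 and 25449.9 against 9.73, 3.07, 4.23 and 4.51 (difference -10.67 ± 0.17, limma adjusted p = 1.5e-10). The proton and solute transporter gene Slc45a2 differed by -6.54 ± 0.46, the melanosome receptor gene Gpr143 by -6.94 ± 0.38, and the melanocyte channel gene Trpm1 by -7.52 ± 0.47. Within B16F10 the control was the lowest array for Tyr, Dct, Pmel, Mlana, Slc45a2, Gpr143, Trpm1, Mitf and Sox10, and for Tyrp1 by its brightest probe set. Trpm1 had 859 in the control and 3766, 2818 and 5372 in the clones.

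The general machinery that makes and moves melanosomes, which many cell types use for lysosome-related organelles, was more mixed. Of 21 genes, 19 of them testable in both lines, 12 were called higher in B16F10 and 3 higher in NIH3T3, against 33.6% and 35.7% of all genes, with a median of -0.53, and these counts ranged from 10 to 20 and from 0 to 3 under the other scalings. The members named on the B16F10 side were chosen as those with the largest differences. Rab38, a small GTPase for delivery of melanin enzymes, had 10445, 12504, 13472 and 14018 in B16F10 and 37.9, 22.04, 25.7 and 30.5 in NIH3T3 by the probe set with the widest gap (difference -8.38 ± 0.16), and differed by -7.15 ± 0.15 by its brightest probe set. Mlph, the linker between the granule and its motor, differed by -7.09 ± 0.31, and Rab27a, the GTPase that binds it, by -7.00 ± 0.25. Sytl2, another RAB27A effector, differed by -3.91 ± 0.50. The 3 genes called higher in NIH3T3 were the BLOC and HPS complex subunits Bloc1s3, Hps6 and Bloc1s6, with differences of 1.02 ± 0.33, 0.78 ± 0.19 and 0.77 ± 0.14 that turned to -0.51, -0.70 and -0.81 with the values as deposited. The call of Bloc1s3 was also lost without NIH3T3 clone 1, NIH3T3 clone 2 or the B16F10 control, with differences of 0.85 to 0.89.

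Transcription factors of the neural crest did not all lie on the melanoma side. Of 12 tested, 7 were called higher in B16F10 and 3 higher in NIH3T3, against 33.6% and 35.7% of all genes. The median was -1.47, and 7 to 9 and 1 to 3 were called under the other scalings. Of the 8 testable in both lines, 4 and 2 were called in these directions, against 34.7% and 30.1% of all genes testable in both. Pax3, an early neural crest factor, had 4776, 5609.7, 5239.9 and 5951 in B16F10 and 4.34, 1.93, 2.33 and 6.34 in NIH3T3. Sox10, the neural crest and melanocyte factor, had 7436, 7634, 7778 and 7819 against 45.2, 23.3, 71.00 and 20.3. The 4 B16F10 arrays of Sox10 lay close together, and the highest NIH3T3 array was far below them. Mitf, the master factor of melanocytes, had 11824, 14088, 14419.8 and 14967 in B16F10 and 576, 509, 548 and 546 in NIH3T3, so its NIH3T3 signal was well above the array medians but the lines did not overlap (difference -4.64 ± 0.10, limma adjusted p = 1e-09). Sox6 differed by -5.33 ± 0.25. On the NIH3T3 side stood Sox9, a factor of neural crest and cartilage, at 2032, 3282, 4008 and 3519.7 against 98.7, 112, 176 and 136. The Wnt pathway factor gene Lef1 differed by 1.98 ± 0.49, and the MITF relative Tfe3 by 1.31 ± 0.16, which turned to -0.26 with the values as deposited.

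Genes of Schwann cells and neural crest glia were also high in B16F10. Of 10 tested, 9 were called higher in B16F10 and 1 in NIH3T3, against 33.6% and 35.7% of all genes. The median difference was -4.54, and 7 were separated by at least 2-fold, against 8.99% of all genes with B16F10 higher. The 5 testable in both lines were all called higher in B16F10, against 34.7% of all genes testable in both. Under the other scalings 8 to 9 and 0 to 1 were called. Mbp, known as a myelin protein, had 8760.3, 12657, 15593 and 13462 against 12.5, 85.2, 38.6 and 32.2 by the brightest of its 8 tested probe sets (difference -8.11 ± 0.38). By another, with NIH3T3 signals of 1.13, 2.38, 0.772 and 0.801, its gap was the largest in favour of B16F10. Cdh19, a cadherin of Schwann cell precursors, had 1935, 1916, 1995 and 2166 against 0.776, 2.59, 2.52 and 1.86. These levels left no overlap between the lines. Fabp7, a fatty acid binding protein of glia, differed by -6.99 ± 0.29 and S100b by -5.47 ± 0.38. Ncam1 was called higher in B16F10 (difference -0.65 ± 0.16) with its brightest probe set, while 1 of its 5 probe sets was called the other way. The exception on the list was the astrocyte filament gene Gfap, at 97.5, 80.1, 66.4 and 96.5 in NIH3T3 and 20.7, 47.6, 53.4 and 43.9 in B16F10. Its difference of 0.94 ± 0.30 turned to -0.39 with the values as deposited, and its other tested probe set was called in the opposite direction.

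Several of the genes furthest apart on the B16F10 side belong to no pigment list. Ptgds, a prostaglandin D synthase, had 14617, 20612, 17097 and 23700.3 in B16F10 and 2.77, 3.98, 11.6 and 14.8 in NIH3T3. Syt4, a synaptotagmin of secretory vesicles, differed by -9.22 ± 0.23, the ephrin receptor gene Epha3 by -8.59 ± 0.21, and the glycine receptor subunit gene Glrb by -8.22 ± 0.35. Fndc3c1, on the X chromosome, differed by -8.15 ± 0.18. Each of these was at least 7.46 apart on the log2 scale between its nearest arrays. By their brightest probe sets Ptgds and Syt4 differed by -8.43 ± 0.26 and -8.38 ± 0.32.

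Collagens defined the NIH3T3 side. Of 17 tested genes for fibrillar and network collagens, limma called 13 higher in NIH3T3 and 2 higher in B16F10, and all of these 15 were separated by at least 2-fold, against 11.6% and 8.99% of all genes. Of the 17, 6 were testable in both lines, and 5 of these were called higher in NIH3T3 and 0 higher in B16F10. Of all genes testable in both lines, 30.1% and 34.7% were called in these directions. The median difference was 3.75, and 12 to 13 and 2 genes were called under the other scalings. Col3a1, the chain of type III collagen, had 27079, 27100.3, 29270.5 and 31937 in the NIH3T3 control, uncloned culture and clones 1 and 2, and 7.97, 17.5, 12.3 and 8.99 in the B16F10 control and clones 1, 2 and 3 (difference 10.46 ± 0.16, limma adjusted p = 1.5e-10). Col1a2, a chain of type I collagen, had 36063, 22298, 23429.7 and 23908 against 257, 363, 556 and 291. Both chains were high in all 4 NIH3T3 arrays, and the B16F10 signals of Col1a2, though far lower, were above the array medians.

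The partner chain of type I collagen behaved differently within NIH3T3. Col1a1 had 23293 in the control and 703, 367 and 503 in the uncloned culture and clones 1 and 2, against 8.33, 2.26, 1.68 and 8.49 in B16F10. The lines did not overlap, but the difference was 10.39 between the controls and 5.33 between the PGC7 means. Col5a2 was of this kind too, with 20343 in the NIH3T3 control, 3816, 4789.8 and 4601 in its PGC7 arrays and 2.48, 9.57, 1.9 and 2.99 in B16F10. The microfibrillar collagens Col6a1 and Col6a3 differed by 8.66 ± 0.20 and 9.54 ± 0.43. Higher in B16F10 were Col14a1, a collagen that associates with fibrils, at 155, 292, 215 and 265 against 27.1, 18.5, 37.8 and 50.5, and Col5a3, a minor chain of type V collagen, at 206, 290.1, 442 and 257 against 55.3, 15.8, 56.9 and 64.1.

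Enzymes that fold and crosslink collagen were mostly higher in NIH3T3. Of 17 tested, 11 were called higher in NIH3T3 and 2 higher in B16F10, against 35.7% and 33.6% of all genes. The median was 1.07, and 5 to 12 and 1 to 9 were called under the other scalings. Of the 12 testable in both lines, 7 and 1 were called, against 30.1% and 34.7% of all genes testable in both. Lox, a lysyl oxidase that crosslinks collagen, had 25603 in the NIH3T3 control and 5412, 4512 and 5924 in the other NIH3T3 arrays, against 4.47, 1.4, 3.91 and 2.6 in B16F10. Its relative Loxl1 differed by 8.91 ± 0.35, the prolyl hydroxylase subunit gene P4ha3 by 3.38 ± 0.55, and Bmp1, which trims procollagen, by 3.32 ± 0.20. Serpinh1, the collagen chaperone, did not pass the test, nor did Plod1, Plod2 and Pcolce. P3h2, a prolyl 3-hydroxylase, was higher in B16F10 (difference -3.35 ± 0.32). The other gene called that way, Leprotl1, stood on the list but encodes a membrane trafficking protein rather than a collagen enzyme.

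Matrix glycoproteins and proteoglycans followed the collagens. Of 27 tested, 18 were called higher in NIH3T3 and 2 higher in B16F10, against 35.7% and 33.6% of all genes. At least 2-fold separation was seen for 15 and 1, against 11.6% and 8.99% of all genes, and the median was 4.62. Of the 12 testable in both lines, 7 and 1 were called, against 30.1% and 34.7% of all genes testable in both. Under the other scalings 14 to 19 and 1 to 5 were called. Dcn, a small proteoglycan that binds collagen fibrils, had 13826, 18715, 16483 and 20066 in NIH3T3 and 13.8, 2.83, 5.23 and 2.86 in B16F10. Efemp1, a fibulin of elastic tissue, had 13215, 11706, 7006 and 8309.9 against 0.632, 9.49, 0.593 and 2.22. The proteoglycan genes Bgn and Vcan differed by 9.32 ± 0.47 and 7.67 ± 0.20 by their brightest probe sets, and Vcan by 9.04 ± 0.25 by the one with the widest gap. Fbln2, a basement membrane fibulin, had 12168 in the NIH3T3 control but 821, 1361 and 1150.1 in its PGC7 arrays. Fbln1, from the same family, went the other way, with 915, 1433, 1217 and 1514 in B16F10 and 11.9, 49.3, 24.5 and 64.8 in NIH3T3.

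Of the fibroblast markers, Postn alone among 12 was not called. Its signals were 3406 in the NIH3T3 control, 57.4, 85.3 and 60.2 in the NIH3T3 PGC7 arrays and 213, 65.1, 73.8 and 75.7 in B16F10 (limma adjusted p = 0.48). Periostin, a matrix protein of wounds and tumour stroma, was therefore high in 1 array, and the sign of its difference changed from 0.92 to -0.45 without that control and to -0.43 with the values as deposited. The 10 melanocyte markers were all separated by at least 2-fold with B16F10 higher, against 8.99% of all genes. So were the 11 other fibroblast markers with NIH3T3 higher, against 11.6%. Most of these markers reached the level for testing only in the line where they were high, so the counts describe where they lay and support nothing further.

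**Figure D2:**
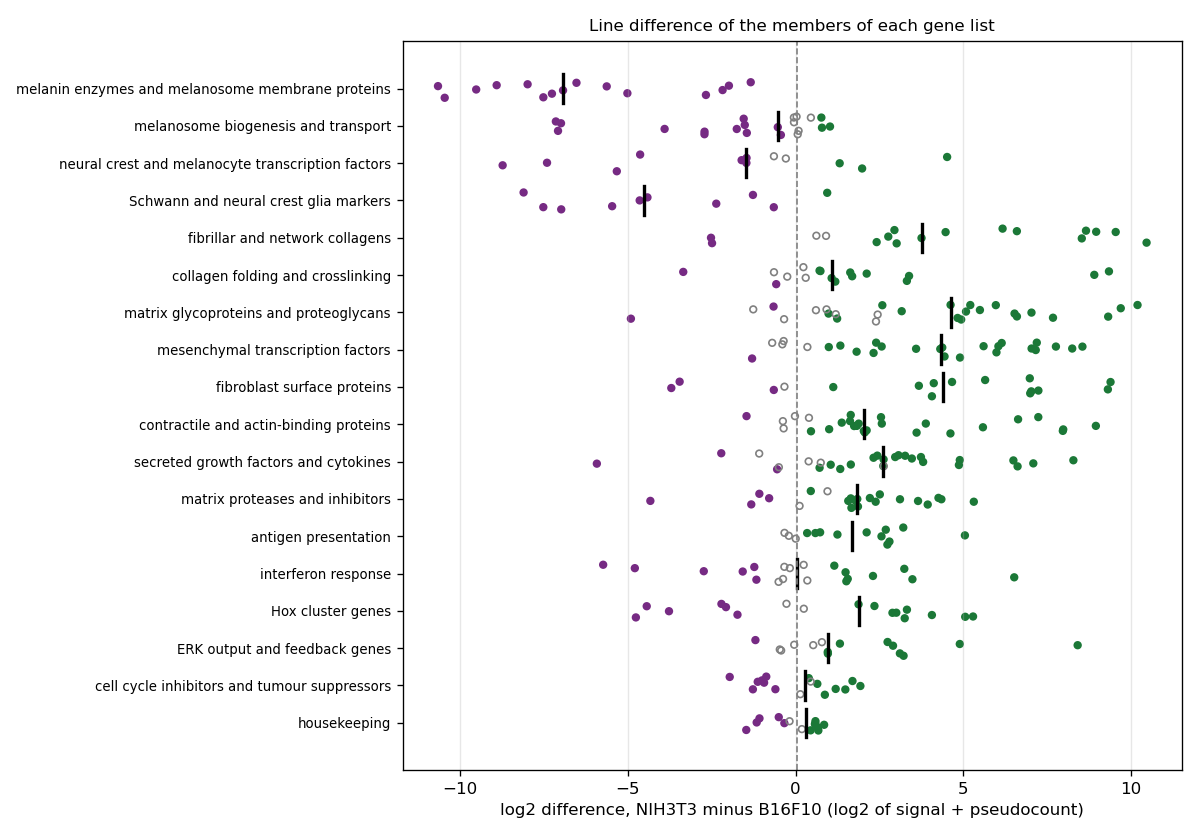
Log2 difference between the lines (NIH3T3 minus B16F10) of each tested gene of 18 lists, by its brightest probe set; green and purple points were called by limma, open grey points were not, black bars are list medians and the dashed line is the median of all tested genes, 0.03. Melanin and glial genes lie to the left, and matrix, mesenchymal and secreted factor genes to the right, while housekeeping and cell cycle genes lie near the dashed line.

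Mesenchymal transcription factors lay mostly on the NIH3T3 side. Of 26 tested, 21 were called higher in NIH3T3 and 1 higher in B16F10, against 35.7% and 33.6% of all genes. With NIH3T3 higher, 18 were separated by at least 2-fold, against 11.6% of all genes. The median was 4.34, and 17 to 22 and 0 to 6 were called under the other scalings. Of the 11 testable in both lines, 6 and 1 were called, against 30.1% and 34.7% of all genes testable in both. The other 15 reached the level for testing in NIH3T3 alone. Prrx1, a homeobox factor of limb and connective tissue mesenchyme, had 5023, 5538, 4204 and 4007 in NIH3T3 and 0.659, 8.01, 2.01 and 4.18 in B16F10. Twist2 had 2773, 6347, 6507 and 5667 against 4.17, 28.9, 1.88 and 5.15. The factor of intermediate mesoderm Osr1 differed by 7.76 ± 0.34, Prrx2 by 7.19 ± 0.41 and Twist1 by 5.60 ± 0.32. Each had 4 low B16F10 arrays. Foxp1 was called higher in B16F10 (difference -1.30 ± 0.47), but the arrays overlapped, and the call was lost without NIH3T3 clone 1, NIH3T3 clone 2 or any single B16F10 array, with differences of -0.82 to -1.34.

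Surface proteins used to recognise fibroblasts were mostly higher in NIH3T3 as well. Of 16 tested, 12 were called higher in NIH3T3 and 3 in B16F10, against 35.7% and 33.6% of all genes. The median was 4.39, and 11 to 12 and 2 to 4 were called under the other scalings. Of the 6 testable in both lines, 3 and 2 were called, against 30.1% and 34.7% of all genes testable in both. Pdgfra, a receptor for platelet-derived growth factor, had 6784, 8505, 4882 and 6596 in NIH3T3 and 22.8, 67.6, 41.6 and 43.5 in B16F10. The related Pdgfrb differed by 4.12 ± 0.30 and kept signals of 339, 166, 218 and 167 in B16F10. Cd34, a sialomucin of stromal and blood-forming progenitors, had 4993, 8719, 6328 and 8074 against 1.29, 1.07, 1.12 and 4.13, and the calcium-binding S100a4 had 33454, 29644, 40598 and 38915 against 42.3, 16.98, 77.3 and 58.2. Thy1, a glycoprotein of fibroblasts and neurons, was 4735 in the NIH3T3 control and 2487, 790.2 and 873 in its PGC7 arrays, with 1.39, 3.15, 1.22 and 3.44 in B16F10. Higher in B16F10 were the membrane peptidase gene Mme (difference -3.71 ± 0.38) and the TGF-beta co-receptor gene Eng (-3.46 ± 0.23). Cd44, the hyaluronan receptor, was not called.

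Contractile and actin-binding proteins, known from myofibroblasts, were called higher in NIH3T3 for 22 of 27 genes and higher in B16F10 for 1. Over all genes the shares called were 35.7% and 33.6%, and the list median was 2.03. Of the 17 testable in both lines, 13 and 1 were called, against 30.1% and 34.7% of all genes testable in both. Under the other scalings 11 to 23 and 1 to 6 were called. Myh10, a non-muscle myosin heavy chain, had 6331, 6709.5, 5591 and 4942 in NIH3T3 and 2.98, 3.32, 3.51 and 1.62 in B16F10. Acta2, the smooth muscle actin, had 17049, 6200.2, 3169 and 8124 against 28.9, 3.5, 41.8 and 20.1. The tropomyosin gene Tpm2 differed by 7.24 ± 0.15 and the calponin-like gene Tagln2 by 7.98 ± 0.24. The exception was Csrp1, an actin-binding LIM protein, with 4334, 5549, 4934 and 6859 in B16F10 and 1563, 1658, 2188 and 2439 in NIH3T3.

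Growth factors and cytokines that cells secrete gave 20 calls higher in NIH3T3 and 3 higher in B16F10 among 28 tested genes. Over all genes the shares called were 35.7% and 33.6%. Of the 10 testable in both lines, 6 and 1 were called, against 30.1% and 34.7% of all genes testable in both. The median difference was 2.62, and 12 to 20 and 2 to 6 were called under the other scalings. Kitl, the stem cell factor that supports melanocytes through the receptor KIT, had 4138, 7360.3, 8831 and 7965 in NIH3T3 and 61.9, 71.7, 68.1 and 65.2 in B16F10. Its receptor gene Kit was among the melanocyte genes called higher in B16F10. Ccl2, which attracts monocytes, had 2339.9, 7454, 5943 and 8408 against 1.84, 6.64, 10.1 and 19.97. Wnt5a, a ligand of non-canonical Wnt signalling, differed by 7.09 ± 0.28, and its receptors Ror1 and Ror2 were higher in NIH3T3 by 5.14 ± 0.38 and 5.16 ± 0.29. Vegfc, a growth factor for lymphatic vessels, lay on the other side, at 749, 654, 642 and 603 in B16F10 and 1.32, 1.13, 2.54 and 3.06 in NIH3T3. Fgf1 and Mif were also higher in B16F10, with differences of -2.22 ± 0.41 and -0.55 ± 0.14.

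Among 23 tested receptor genes, 13 were called higher in NIH3T3 and 5 in B16F10, against 35.7% and 33.6% of all genes, with a median of 1.18 and with 6 to 13 and 4 to 11 called under the other scalings. Of the 17 testable in both lines, 7 and 5 were called. Fgfr2 differed by 4.59 ± 0.39 and Epha2 by 4.44 ± 0.47. Nrp2, a co-receptor for VEGFC and semaphorins, was 4641, 3862, 3858 and 3735 in B16F10 and 475, 268, 801 and 1049.5 in NIH3T3. Ptch1, the Hedgehog receptor, was higher in B16F10 (difference -1.77 ± 0.22). For Met, the receptor of hepatocyte growth factor, and Ddr1, a collagen receptor, probe sets of the same gene were called in opposite directions, so no direction is given.

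Transcripts known to rise with ERK signalling were called higher in NIH3T3 for 9 of 15 genes and higher in B16F10 for 1, against 35.7% and 33.6% of all genes, with a median of 0.96 and with 6 to 9 and 0 to 6 called under the other scalings. Of the 12 testable in both lines, 6 and 1 were called. Fosl1, an AP-1 subunit, had 1923, 5943, 5303 and 5387 in NIH3T3 and 3.98, 1.09, 8.23 and 1.94 in B16F10. Etv4 had 80.3 in the NIH3T3 control, 641, 563 and 580.2 in its PGC7 arrays and 6.31, 4.19, 2.78 and 1.51 in B16F10. Etv5, its close relative, had 644 and 784 in the controls of NIH3T3 and B16F10, 2506, 2409 and 2381 in the NIH3T3 PGC7 arrays and 122, 88.8 and 159.6 in the B16F10 clones. The lines therefore overlapped for Etv5 in the controls, although limma called it over the 8 arrays (difference 3.11 ± 0.65, adjusted p = 0.0018). The phosphatase gene Dusp5 differed by 3.22 ± 0.37. Spry1, a feedback inhibitor, was called higher in B16F10 (difference -1.20 ± 0.46) with overlapping arrays, and its call was lost when any single array other than the NIH3T3 control was left out, with differences of -0.77 to -1.28.

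Proteases and their inhibitors, which remodel the matrix, were called higher in NIH3T3 for 16 of 22 genes and higher in B16F10 for 4. Over all genes the shares called were 35.7% and 33.6%, and the list median was 1.82. Of the 16 testable in both lines, 10 and 4 were called, against 30.1% and 34.7% of all genes testable in both. Under the other scalings 8 to 17 and 4 to 6 were called. Mmp2, a gelatinase of stromal cells, had 5961, 3304, 1930.0 and 2117 in NIH3T3 and 127, 151, 171 and 146 in B16F10. Plat, the tissue plasminogen activator, differed by 5.31 ± 0.48, Mmp19 by 4.35 ± 0.28 and Mmp9 by 3.94 ± 0.46. On the B16F10 side stood the membrane-bound sheddase gene Adam12, with 1973, 1253, 888 and 1267 against 171, 47.4, 49.2 and 20.4.

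Of 25 integrin, cadherin and other adhesion genes, 10 were called higher in NIH3T3 and 8 higher in B16F10, shares near the 35.7% and 33.6% of all genes, and 4 to 12 and 7 to 14 were called under the other scalings. The median was 0.44. Of the 13 testable in both lines, 5 and 2 were called, against 30.1% and 34.7% of all genes testable in both. Single members lay far apart in either direction. Itga4, the integrin subunit that binds VCAM1, had 932, 689, 813 and 803 in B16F10 and 5.8, 6.38, 2.46 and 25.9 in NIH3T3, whereas the fibronectin receptor subunit Itga5 had 63.8, 29.4, 70.3 and 61.6 in B16F10 and 883, 2694, 2300.5 and 2663 in NIH3T3. Itga8 differed by 5.06 ± 0.42 in the direction of Itga5. Mcam, an adhesion molecule of melanoma and endothelium, was 1093 in the B16F10 control, 325, 392 and 350.3 in its clones and 12.1, 7.08, 8.14 and 12.4 in NIH3T3. Cdh13 was higher in B16F10 (difference -2.74 ± 0.51).

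Of 23 targets of YAP and TGF-beta signalling, 10 were called higher in NIH3T3 and 7 higher in B16F10, again near the 35.7% and 33.6% of all genes, with a median of 0.70 and with 7 to 10 and 6 to 12 called under the other scalings. Of the 16 testable in both lines, 4 and 6 were called, against 30.1% and 34.7% of all genes testable in both. Axl, a receptor kinase induced by YAP, had 8839, 10641, 12006 and 12551 in NIH3T3 and 33.4, 53.1, 45.05 and 64.4 in B16F10. Ltbp1, which stores latent TGF-beta in the matrix, differed by 7.01 ± 0.25, and Tgfb1 itself by 4.77 ± 0.47. Id2, an inhibitor of helix-loop-helix factors, was 10757, 8771, 9312 and 8000.4 in B16F10, 3856 in the NIH3T3 control and 209, 474 and 268 in the NIH3T3 PGC7 arrays. Ccn1, a matricellular protein, was higher in B16F10 (difference -3.55 ± 0.61), and so was Tgfb2 (-2.49 ± 0.35).

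Hox genes, which record position along the body axis, were bright in different members in the 2 lines. Of 32 measured, 17 could be tested, 9 through NIH3T3 alone, 6 through B16F10 alone and 2 through both, so no count over those speaks for the other 15. Limma called 9 higher in NIH3T3 and 6 higher in B16F10, where 35.7% and 33.6% of all genes were called, and 8 to 9 and 6 to 8 under the other scalings. In NIH3T3 the higher genes were Hoxa2, Hoxa4, Hoxa5, Hoxa7, Hoxc4, Hoxc5, Hoxc6, Hoxd8 and Hoxd9. In B16F10 they were Hoxa9, Hoxa10, Hoxa11, Hoxb3, Hoxb6 and Hoxd13. Within the A cluster, the called genes from Hoxa2 to Hoxa7 were higher in NIH3T3 and those from Hoxa9 to Hoxa11 were higher in B16F10. Within the D cluster, Hoxd8 had 753, 1631, 1178 and 1229 in NIH3T3 and 20.9, 35.4, 13.00 and 17.9 in B16F10, Hoxd9 differed by 5.06 ± 0.30, and Hoxd13 had 17.01, 17.4, 9.68 and 23.8 in NIH3T3 and 528, 498, 648 and 514 in B16F10. Hoxa10 had 1104, 900.0, 717 and 889 in B16F10 and 92.9 in the NIH3T3 control, with 2.65, 11.7 and 40.1 in the other NIH3T3 arrays. Hoxa3 and Hoxd3 were not called.

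**Figure D3:**
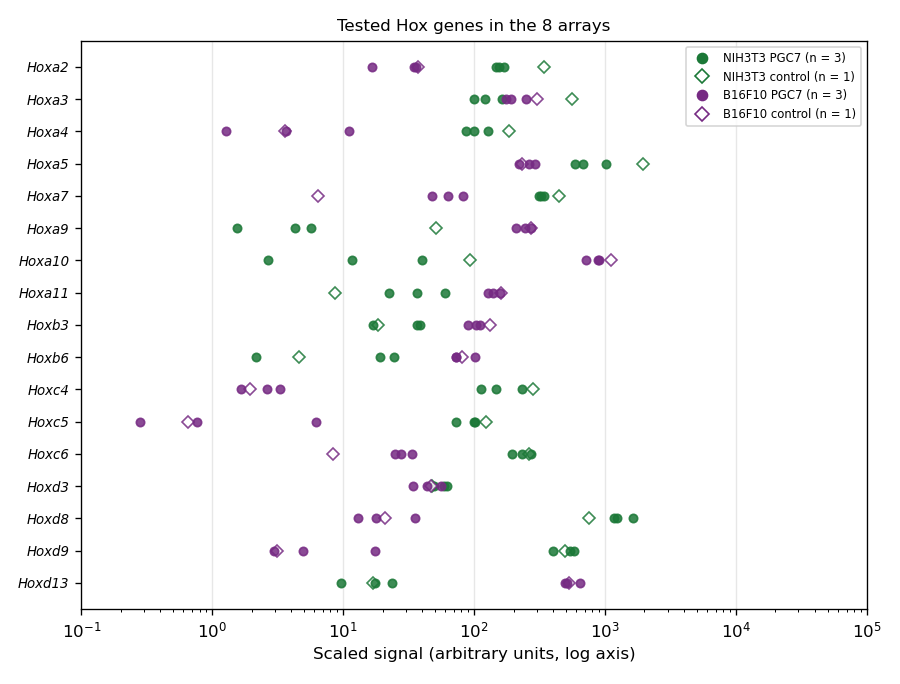
Scaled signal (log axis, arbitrary units) of the 17 tested Hox genes in the 8 arrays, by cluster and position; filled points are PGC7 arrays and open diamonds the lone controls, green for NIH3T3 and purple for B16F10. Hoxa2, Hoxa4, Hoxa5, Hoxa7, the 3 C cluster genes, Hoxd8 and Hoxd9 are higher in NIH3T3, and Hoxa9 to Hoxa11, Hoxb3, Hoxb6 and Hoxd13 are higher in B16F10.

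Genes of antigen presentation by MHC class I were called higher in NIH3T3 for 11 of 14 and higher in B16F10 for 0. Over all genes the shares called were 35.7% and 33.6%, and the list median was 1.68. Of the 9 testable in both lines, 7 were called higher in NIH3T3, against 30.1% of all genes testable in both. Under the other scalings 6 to 11 were called higher in NIH3T3 and 0 to 6 higher in B16F10. Tap2, a subunit of the peptide transporter, had 654, 446, 464 and 532 in NIH3T3 and 9.16, 5.02, 7.06 and 6.78 in B16F10, and its partner Tap1 had 309, 146, 110.0 and 160.3 against 5.8, 19.1, 33.9 and 14.96. Psmb9, a subunit of the immunoproteasome, differed by 2.74 ± 0.39, and H2-M3, a class I molecule, by 3.21 ± 0.54. These 4 genes reached the level for testing in NIH3T3 alone and were therefore all but bound to differ. Under each scaling they were higher in NIH3T3, with a difference of at least 1.35.

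Of 20 tested interferon-stimulated genes, 8 were called higher in NIH3T3 and 6 higher in B16F10, shares near the 35.7% and 33.6% of all genes, and the list median was 0.03, as was that of all tested genes. Of the 10 testable in both lines, 4 and 1 were called, against 30.1% and 34.7% of all genes testable in both. Another 4 reached the level for testing in NIH3T3 alone and 6 in B16F10 alone. Under the other scalings 3 to 8 and 5 to 12 were called, and with quantile normalization the list median was -0.27 relative to all genes. Ly6e had 3599.7, 1552, 439 and 555 in NIH3T3 and 0.876, 11.03, 0.599 and 1.64 in B16F10. Ifitm3, which blocks entry of enveloped viruses, had 13348, 14972, 13049 and 13420.0 against 962, 1256, 1033 and 1749. Bst2, which tethers budding virus, went the other way, with 936, 1053, 1012 and 1154 in B16F10 and 8.61, 9.6, 7.73 and 17.7 in NIH3T3. Rsad2, the antiviral protein viperin, was 445 in the B16F10 control, 1334, 1318 and 1491 in its clones and 42.95, 33.1, 7.5 and 47.4 in NIH3T3, and the RNA sensor gene Ifih1 differed by -2.74 ± 0.39.

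Of 16 tested cell cycle regulators and tumour suppressors, 7 were called in each direction, where 35.7% and 33.6% of all genes were, and the median was 0.27, and 0 to 9 and 6 to 12 were called under the other scalings. Cdk6 was higher in NIH3T3 by 1.93 ± 0.22 and the inhibitor gene Cdkn1a by 1.69 ± 0.21, while Cdkn1b was higher in B16F10, with 3517, 4584, 4103 and 4755 against 1964, 994, 908 and 740.0. The inhibitor gene Cdkn2c differed by 1.48 ± 0.09 and turned to -0.10 with the values as deposited. Housekeeping genes gave 7 calls higher in NIH3T3 and 5 higher in B16F10 among 14, against those same shares, with a median of 0.32, and from 0 to 8 and from 3 to 14 under the other scalings. Rplp0 differed by 0.59 ± 0.08 and Actb by 0.68 ± 0.10, and both turned over with the values as deposited, to -0.995 and -0.91. Of the 2 tested probe sets of Actb, 1 was called in the opposite direction, so no direction is given for that gene. Gusb, a lysosomal enzyme, was higher in B16F10 (difference -1.47 ± 0.10) and was so under every scaling. These small differences are of the size that the choice of scaling moves.

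Markers of other cell types were mostly dim in both lines. None of 7 measured T and B cell markers passed the filter, and their summed signal was 65.7 to 179.8 in NIH3T3 and 59.9 to 159.2 in B16F10. Macrophage markers summed to 618 to 1223 in NIH3T3 and 189 to 287 in B16F10, with 5 of 10 tested. Limma called 3 higher in NIH3T3 and 0 higher in B16F10, against 35.7% and 33.6% of all genes, and 2 to 3 and 0 to 2 under the other scalings. The third, Csf1r, turned from 1.15 to -0.28 with the values as deposited. The other 2 called genes reached the level for testing in NIH3T3 alone. Cd14 had 131, 471, 520.4 and 578 against 1.69, 3.77, 1.25 and 1.92, and Ptprc, the common leukocyte antigen, had 60.6, 74.8, 231 and 175 against 0.711, 0.578, 1.29 and 14.9. Adgre1, Itgam and Lyz2 were too dim to test. Endothelial markers summed to 283 to 572 and 605 to 819, with Pecam1 and Kdr too dim to test. The 2 tested, Vwf and Egfl7, were called higher in B16F10, against 33.6% of all genes, and 1 to 2 were under the other scalings. The arrays of Vwf overlapped. Epithelial markers summed to 180.2 to 344 and 101.2 to 167.6. Muscle markers summed to 469.6 to 1925 and 179.1 to 379.8, and Myod1 and Myog were too dim to test. Of 5 tested, Chrna1, Des and Acta1 were called higher in NIH3T3 and Myh3 and Ckm higher in B16F10, against 35.7% and 33.6% of all genes. None of the 5 was testable in both lines. Chrna1 had 1648 in the NIH3T3 uncloned culture and 36.8, 390 and 397 in the NIH3T3 control and clones 1 and 2. The part of all these markers in the differences between the lines was not tested.

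Neuronal markers summed to 1315 to 1541 in B16F10 and 252 to 430.0 in NIH3T3. Tubb3, a neuronal tubulin, had 1121, 1014, 1031 and 1191 in B16F10 and 3.9, 9.08, 2.61 and 1.55 in NIH3T3, and Map2 differed by -4.43 ± 0.26, whereas Snap25, of the synaptic fusion machinery, had 36.1, 246, 228 and 165 in NIH3T3 and 2.25, 0.538, 1.07 and 2.22 in B16F10. Cartilage and bone markers summed to 3965 to 6362 in NIH3T3 and 244.7 to 401.7 in B16F10. Sox9 was bright in every NIH3T3 array, and Mgp in the NIH3T3 control. Mgp, an inhibitor of calcification, had 4046 in the NIH3T3 control, 68.2, 76.9 and 111 in its PGC7 arrays and 22.8, 1.39, 27.3 and 46.4 in B16F10. Its call (difference 3.06 ± 1.15, limma adjusted p = 0.036) was lost without the B16F10 control, clone 1 or clone 2, with differences of 2.58 to 3.18. Adipocyte markers summed to 197.1 to 3256 and 51.5 to 71.0. The top of that range was the NIH3T3 control, where the lipase gene Lpl had 3025, against 150.5, 100.5 and 101 in the PGC7 arrays and 0.922, 0.992, 0.932 and 3.26 in B16F10. Fat cell genes such as Pparg and Adipoq were too dim to test.

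Genes that tell male from female cells were dim in both lines. Xist, Eif2s3y, Kdm5d and Uty were measured and did not pass the filter in either line. The X-linked gene Kdm6a was higher in B16F10 (difference -1.43 ± 0.19). Ddx3x and Eif2s3x had probe sets called in opposite directions.

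Most probe sets chosen by the difference between the lone controls were also separated in that direction over all arrays. Of 8056 probe sets at least 2-fold higher in the NIH3T3 control than in the B16F10 control, 6624 (82.2%) were higher in every NIH3T3 array than in every B16F10 array. In the other direction this held for 3659 of 4073 (89.8%). For differences of at least 16-fold between the controls it held for 1020 of 1055 (96.7%) and 410 of 411 (99.8%). Over all tested probe sets, 36.5% and 26.4% were separated in these directions. The controls served both for the choice and for the separation. The shares among the chosen probe sets were therefore partly fixed in advance and support nothing further. Conversely, 361 probe sets at least 2-fold higher in the NIH3T3 control and 144 at least 2-fold higher in the B16F10 control had PGC7 means that lay the other way. A limma test of whether the line difference was the same in PGC7 arrays and in controls, with 1 control per line assumed to vary like the PGC7 arrays, called 1737 probe sets (6.87%). Of the probe sets separated by at least 16-fold, it called 38 of 373 with NIH3T3 higher and 12 of 261 with B16F10 higher.

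**Figure D4:**
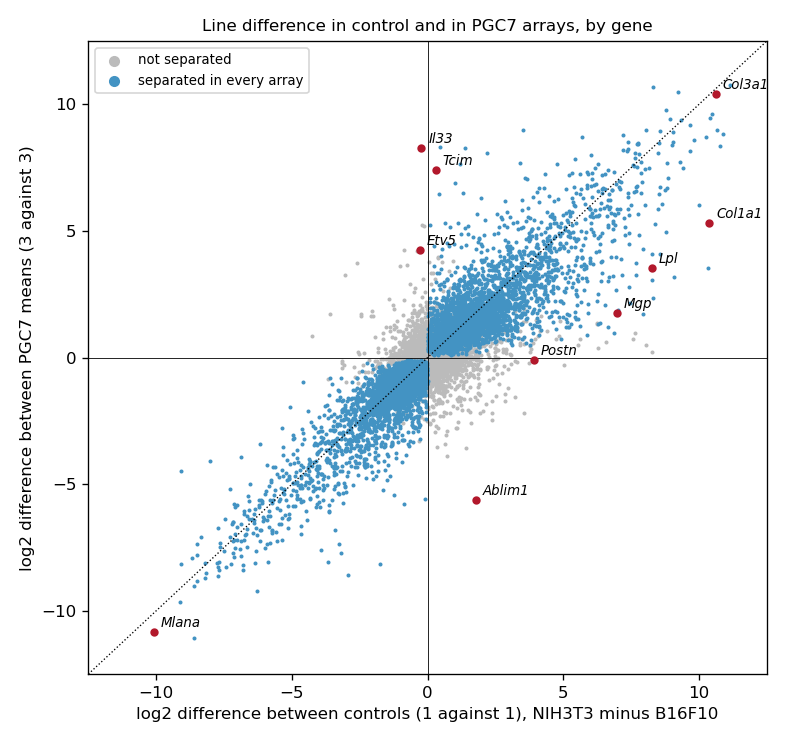
Line difference of each tested gene (log2, NIH3T3 minus B16F10, brightest probe set) between the lone controls on the horizontal axis and between the means of the 3 PGC7 arrays on the vertical axis; blue genes are separated in every array, grey genes are not, red points are labelled examples, and the dotted line marks equal differences. Most genes lie along the dotted line; Il33 and Tcim differ by 8.27 and 7.42 between the PGC7 means and by -0.22 and 0.30 between the controls, and Ablim1 lies on opposite sides of 0 in the controls and in the PGC7 means.

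In all, 1854 probe sets were called by limma but had overlapping arrays, and in 867 of them the overlap was gone without the NIH3T3 control. It was gone in 552 without the B16F10 control and in 144 to 400 without any other single array. The 12 genes of largest mean difference among the overlapping calls were Il33, Tcim, Sema7a, Cytip, Rgs16, Glod5, Rnf183, Ablim1, Plxna4, Arhgap6, Pde4b and Evi2a, each by the overlapping probe set with its largest difference. For 7 of them this was not the brightest probe set. By the brightest, Sema7a, Cytip, Plxna4 and Evi2a were higher in every NIH3T3 array, with differences of 5.42, 7.62, 3.61 and 6.35, and Rgs16, Arhgap6 and Pde4b were not called, with 2.15, 0.39 and -2.32 (limma adjusted p = 0.18, 0.73 and 0.06). Il33, an alarmin cytokine stored in the nucleus, had 6.13 in the NIH3T3 control, 3347, 7330.5 and 12574 in the NIH3T3 PGC7 arrays and 8.64, 14.7, 6.32 and 19.7 in B16F10. Tcim had 3.2 in the NIH3T3 control, 3067, 2250.2 and 2759.8 in its PGC7 arrays and 0.896, 2.3, 1.27 and 23.7 in B16F10. Both genes were at the B16F10 level in the NIH3T3 control and high in the 3 other NIH3T3 arrays. By their overlapping probe sets, Sema7a, Cytip, Rgs16, Glod5, Rnf183, Plxna4, Arhgap6 and Evi2a showed this arrangement as well. The semaphorin gene Sema7a had 2.84 in the NIH3T3 control and 728, 437 and 399 in its PGC7 arrays. By the brightest probe sets, the controls differed by 1.03 for Sema7a, 3.54 for Cytip, -2.61 for Rgs16, 0.98 for Plxna4, -3.58 for Arhgap6 and 0.47 for Evi2a. The call of Rgs16 was lost without the NIH3T3 uncloned culture, NIH3T3 clone 2 or the B16F10 control, with differences of 3.09 to 3.73, and that of Arhgap6 without any single NIH3T3 PGC7 array, with 2.77 to 2.97.

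Ablim1 and Pde4b were arranged the other way. Ablim1, an actin-binding LIM protein, had 1394 in the NIH3T3 control, 5.24, 9.03 and 16.6 in the NIH3T3 PGC7 arrays and 394, 989, 849 and 888 in B16F10. Pde4b, a phosphodiesterase that breaks down cyclic AMP, had 719 in the NIH3T3 control, 3.75, 2.52 and 5.54 in its PGC7 arrays and 324, 322, 318 and 326 in B16F10. Between the controls these genes differed by 1.80 and 1.13, and between the PGC7 means by -5.61 and -4.68. The call of Ablim1 was lost without any single NIH3T3 PGC7 array, with differences of -3.11 to -3.39, and that of Pde4b without any single array other than the NIH3T3 control, with -2.69 to -3.24. Since each line had 1 control, the spread of the controls is not known.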

How the data were processed

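The authors deposited 1 intensity per probe set and array on a linear scale, made with MAS5 per the submitters' processing notes; no source used here gives its version or settings. The comparison, the 30 gene lists (573 of 614 entries measured) and the named-gene rule were chosen with earlier results of these data known.

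Each array was scaled to a mean of 500 between percentiles 2 and 98, multiplying NIH3T3 arrays by 2.65 to 3.49 and B16F10 arrays by 1. The pseudocount of 9 is percentile 25 of the scaled values, rounded. Of 45101 probe sets, 64 were controls and 19768 were dim, with a mean below the overall median signal of 49.1, in NIH3T3 and in B16F10 alike. The remaining 25269, of 11652 genes, were tested. The table used here holds no detection calls, so no background level is known. Only the 34958 probe sets with 1 annotated symbol were named.

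Line was the only term of a two-sided limma 3.58.1 fit (R 4.3.3, intensity trend), adjusted by Benjamini-Hochberg over all tested probe sets; PGC7 status and clones stay in the spread. On simulated data it recovered 19 of 67 probe sets shifted by 1 (log2), 49 of 67 by 2 and 63 of 66 by 4, with 2 false calls among 25269. Only these few were shifted, with independent normal spread, whereas most real probe sets were called. The adjusted cut-off was therefore stricter in the simulation, and its recovery does not give the power in the data. Precision is limited by the number of arrays.

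Named genes were taken from the 12 of largest gap in each direction and the 12 of largest difference among overlapping calls (each by the probe set so chosen), the 4 of largest difference per list and direction (a gene by its brightest tested probe set), and the markers. Alternatives were scaling, pseudocount, filter, design, array weights, each array left out, and PGC7 or control arrays alone. The 16-fold gap, CpG ratio and TATAAA were added after seeing the data.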

Additional observations from a re-analysis of the deposited data

Results flagged for a closer look

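For 32 of the named results, limma's test of the line difference in PGC7 arrays against that in the lone controls passed an adjusted p under 0.05. The values here are the log2 line difference (NIH3T3 minus B16F10) between the PGC7 means minus that between the controls. The labelled groups hold 1 or 3 arrays, so no single array was tested as standing apart. Over all tested probe sets the share that passed was 6.87%. Genes named for overlapping calls of large difference were picked by a rule that favours a control unlike its line. The count of 32 therefore partly follows from how genes were named.

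Of these genes, 15 had a value above 0. It was 8.50 for Il33, 7.12 for Tcim, 5.64 for Sema7a, 5.43 for Glod5, 5.31 for Rnf183, 5.01 for Arhgap6, 4.998 for Evi2a and 3.76 for Cytip, all of which were low in the NIH3T3 control as in B16F10 by the probe sets named in the report. The ETS factor genes Etv5 and Etv4 had 4.52 and 3.13. For Phex, a protease of bone, it was 2.50, and for the matrix protein gene Tgfbi 2.40. The retinoic acid binding protein gene Crabp1 had 2.39, Dcn 1.26 and the transferrin receptor gene Tfrc 0.79.

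The other 17 had a value below 0. It was -7.41 for Ablim1 and -5.81 for Pde4b. Matrix genes followed, with -5.24 for Mgp, -5.06 for Col1a1, -4.03 for Postn, -3.97 for Fbln2, -2.44 for Col5a2 and -2.07 for Lox. Each of these 6 was brightest in the NIH3T3 control. The lipase gene Lpl had -4.71 and Id2 -3.34. Among genes higher in B16F10, the value was -2.48 for Tyrp1 by its brightest probe set, -2.47 for S100b, -2.21 for Trpm1, -1.50 for Cdkn1b, -1.45 for Rab27a and -1.04 for Ccnd2. It was -1.47 for Met, whose probe sets were called in opposite directions. The value of Tyrp1 rested on dim NIH3T3 signals, 46.9 in the control and 1.94, 4.32 and 1.65 in the PGC7 arrays. By its probe set with the widest gap the value was 0.14.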

How the results depend on the processing

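The call counts moved with the scaling and with the filter. Called higher in NIH3T3 and higher in B16F10 were 2720 and 18279 probe sets with the values as deposited, 5324 and 11193 with poly-A spike scaling, and 4629 higher in B16F10 with housekeeping scaling. Where the filter had to be met in both lines, 6189 were called higher in NIH3T3. Only 63 of the 196 named probe sets could then be tested, and all of these kept their direction and call. Separated in every array were 2307 and 17014 (deposited), 4486 and 10354 (poly-A spikes), 3959 higher in B16F10 (housekeeping) and 5666 higher in NIH3T3 (filter in both lines). Separated by at least 2-fold were 1068 and 9983 (deposited), 1990 and 3692 (poly-A spikes), 1254 higher in B16F10 (housekeeping), 1678 and 1090 (filter in both lines), and 9046 and 4075 between the controls alone, where each line has 1 array. Separated by at least 16-fold were 138 and 474 with the values as deposited. Leaving out 1 array gave 9224 to 10463 and 6536 to 7900 calls, 9339 to 10379 and 6740 to 7757 separated, and 3828 to 4427 and 2045 to 2557 separated by at least 2-fold.

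Of 192 named genes, represented by 196 probe sets, 15 turned over with the values as deposited: Postn to -0.43, Bloc1s3 to -0.51, Hps6 to -0.70, Bloc1s6 to -0.81, Tfe3 to -0.26, Gfap to -0.39, Cdkn2c to -0.10, Tsc2 to -0.37, B4galt1 to -0.71, Actb to -0.91, Tbp to -0.90, Rplp0 to -0.995, Csf1r to -0.28, Acta1 to -0.42 and Sp7 to -0.43. Rplp0 also turned over with poly-A spike scaling, to -0.064. Between the controls alone Ablim1 was 1.80, Pde4b 1.13, Etv5 -0.28 and Spry1 0.37. Postn was -0.087 over PGC7 arrays only, and ranged from -0.45 without the NIH3T3 control to 1.44 with each array left out in turn. The interferon list median relative to all tested genes was -0.27 with quantile normalization and -0.12 over the mean of a gene's probe sets. The cause of these changes was not tested.

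A replicate block of control, clone 1 and clone 2 gave 8914 and 6297 calls, and 12 of the named probe sets were no longer called. The numbers do not pair the samples: same-numbered arrays of the lines had deviations that correlated at 0.06, 0.01 and -0.07. Low signals on either side limit how large a difference can be read.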

Other observations

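Some genes separated by at least 16-fold in the same direction were next to each other in the annotation of GRCm38.p6. With NIH3T3 higher these were 11 pairs: Col3a1 and Col5a2 and Plxna2 and Cd34 on chromosome 1, Col6a2 and Col6a1 and Col6a1 and Pcbp3 on chromosome 10, Myo1d and Tmem98 on chromosome 11, Irx1 and Irx2 on chromosome 13, Rin1 and Cd248 on chromosome 19, Prrx2 and Ptges on chromosome 2, Hdgfl3 and Bnc1 and Bnc1 and Sh3gl3 on chromosome 7, and Casp4 and Casp12 on chromosome 9. With B16F10 higher there were 8: Fabp7 and Smpdl3a and Pmel and Cdk2 on chromosome 10, the connexin genes Gja3 and Gjb2 and the zinc finger genes Zic5 and Zic2 on chromosome 14, Dnaic1 and Enho on chromosome 4, Ctsc and Rab38 and Insc and Sox6 on chromosome 7, and Mc1r and Tubb3 on chromosome 8. Several pairs are known gene families lying side by side, and others, such as Pmel and Cdk2, are not. No chance share was computed for such pairs.

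Chromosomes differed in the share of genes on each side. On chromosome 19, 82 of 407 tested genes (20.1%) were separated by at least 2-fold with NIH3T3 higher and 19 (4.67%) with B16F10 higher, and the median difference was 0.56. On chromosome 6 these shares were 8.84% and 15.3% of 588 genes, with a median of -0.42. The other autosomes with over 1 gene had medians from -0.29 to 0.26. These values are descriptions, since neighbouring genes are not independent and copy number was not measured.

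CpG dinucleotides were less dense at the promoters of the genes furthest apart. A ratio of observed to expected CpG of at least 0.6 was found in 69.1% of the 12180 promoters of tested genes, in 49.8% of the 223 promoters of genes at least 16-fold higher in NIH3T3, and in 53.6% of the 192 promoters of genes at least 16-fold higher in B16F10. The letters TATAAA, on either strand, were held by 7.12%, 11.7% and 11.98% of these promoters.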
